A study of Mus musculus with 8 samples.

Results

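The proteasome is the large protease that degrades proteins marked with ubiquitin, and its subunits are encoded by the Psma, Psmb, Psmc, Psmd and Psme genes. All genes whose symbol begins with one of these stems followed by a digit were taken, which gave 44 of the 23504 gene symbols measured, and 43 of the 44 passed the filter on low counts. The genes were picked by symbol and not by level, but the family was chosen with earlier results of these data known. The mice were C57Bl6/J, of wild type, and RNA was taken from the dissected outer cortex of the kidney, giving 4 libraries for a high fat diet and 4 for a control diet. Both groups began their diet at 6 weeks of age and stayed on it for 9 weeks, so that the mice were 15 weeks old, and no other treatment or allele is given for either group. The study's question was which genes of the cortex respond to the high fat diet. Whether the 4 libraries of a diet are 4 mice is not said in the labels, so the p-values cover only the spread from library to library. A library is called by its diet and its letter, such as control I or high fat A.

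The proteasome consists of a barrel, the 20S core, and of caps that sit on its ends. The alpha subunits (Psma) form the outer rings of the barrel and its gate, the beta subunits (Psmb) form the inner rings, and 3 of the beta subunits, Psmb5, Psmb6 and Psmb7, carry the active sites. In the 19S cap the Psmc subunits are ATPases that unfold the substrate and thread it into the barrel, and most Psmd subunits form the base and lid that bind and remove ubiquitin. In immune cells and under interferon, Psmb8, Psmb9 and Psmb10 take the places of Psmb5, Psmb6 and Psmb7 and form the immunoproteasome, whose peptides are loaded on class I molecules. The Psme genes encode activators that can open the barrel in place of the cap. In the proximal tubule, the main cell of the cortex, filtered protein is taken up by endocytosis and degraded mainly in lysosomes, while the proteasome handles proteins of the cytosol and nucleus.

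When proteasome activity falls short, the transcription factor Nfe2l1 raises subunit genes through antioxidant response elements in their promoters. The core of the element is TGACNNNGC, which Nfe2l2 also binds. These elements were therefore searched on both strands from 250 bases before to 50 bases after each RefSeq start (GRCm38.p6), where 37 of the 44 genes had an entry. A match was present for 6 of the 37 genes (16.2%), namely Psmb5, Psmb6, Psmc6, Psmd9, Psmd12 and Psme4, against 14% of 27025 genes with an entry. The box CCAAT was present for 15 of the 37 (40.5%) against 41.1% of all genes. The interferon-stimulated element, searched as GAAA, any 2 bases and GAAA, was present for 4 of the 37 (10.8%), Psmb3, Psmd4, Psmd9 and Psme1, against 3.99% of all genes. It was absent from the windows of the immunoproteasome genes Psmb8, Psmb9 and Psmb10 and of the activator gene Psme2. A match in these windows is a description of the letters and not a bound site. The promoters of the 2 genes whose levels differed between the diets after adjustment, Psma4 and Psmd6, and of the 2 standard catalytic subunits with an antioxidant match, Psmb5 and Psmb6, are printed here up to the first annotated start in RefSeq or GENCODE M21, 5′ to 3′ on the strand of the gene, with the match in capitals. The printed stretch for Psma4 lies at chr9:54950609-54950789 (+ strand) and that for Psmd6 at chr14:14120985-14121195 (- strand). That for Psmb5 lies at chr14:54618023-54618245 (- strand) and that for Psmb6 at chr11:70525107-70525356 (+ strand).
Psma4: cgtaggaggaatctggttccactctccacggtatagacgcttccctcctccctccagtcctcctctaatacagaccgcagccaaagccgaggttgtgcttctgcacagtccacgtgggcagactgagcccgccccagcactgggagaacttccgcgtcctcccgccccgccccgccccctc
Psmd6: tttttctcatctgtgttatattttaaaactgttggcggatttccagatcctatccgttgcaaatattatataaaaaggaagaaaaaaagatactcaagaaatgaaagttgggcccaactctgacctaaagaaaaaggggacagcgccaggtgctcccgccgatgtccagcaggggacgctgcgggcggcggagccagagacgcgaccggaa
Psmb5: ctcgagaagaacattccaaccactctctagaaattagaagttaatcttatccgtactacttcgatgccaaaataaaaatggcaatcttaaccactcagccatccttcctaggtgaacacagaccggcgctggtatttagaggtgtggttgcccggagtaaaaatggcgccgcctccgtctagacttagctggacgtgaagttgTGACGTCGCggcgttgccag
Psmb6: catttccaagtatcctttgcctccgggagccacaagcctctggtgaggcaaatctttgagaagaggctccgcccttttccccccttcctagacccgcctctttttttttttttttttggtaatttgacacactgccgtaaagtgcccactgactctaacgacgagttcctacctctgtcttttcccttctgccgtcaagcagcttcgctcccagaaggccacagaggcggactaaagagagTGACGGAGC
No match to any of these motifs was found in the windows of Psma4 and Psmd6. The matches of Psmb5 and Psmb6 begin 47 and 9 bases before their RefSeq starts, and the levels of these 2 genes on the diets are given with the catalytic subunits.

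Total expected counts ran from 23503593 to 30781585 per library. Control J stood apart, with 50.3% of its counts on Rn45s, the ribosomal RNA precursor, against 1.23% to 13.3% in the other 7 libraries. Rn45s was left out before scaling, which left 13993652 counts in control J and up to 30403685 in the others. Markers of proximal tubule (Lrp2, Slc34a1, Slc5a2, Slc22a6 and Cubn) summed to 19345 to 21161 CPM (TMM-normalised counts scaled to 1000000 per library without Rn45s) in the control libraries and 19593 to 21060 in the high fat libraries, and podocyte, distal tubule, collecting duct and endothelial markers were present in every library. Markers of fat summed to at most 1.45 CPM and those of skeletal muscle to at most 0.99. The 4 red cell genes summed to 359 to 843 CPM in control and 400.2 to 2227 CPM in high fat libraries, highest in high fat G. None of the 4 passed in edgeR, DESeq2 or limma-voom, and 2 were higher at an unadjusted p under 0.05 in edgeR. The 2 markers of the thick ascending limb summed to 3269 to 3902 and 2629 to 3342 CPM. Among all markers, Slc12a1 of the thick ascending limb and Cubn of the proximal tubule fell and Slc34a1 rose, calls kept in 8, 7 and 2 of the 8 fits that left out 1 library. The proximal tubule sum combines opposite differences. Without overlap of the diets, Lrp2 and Cubn were lower and Slc34a1 and Slc22a6 higher on the high fat diet, while Slc5a2 overlapped. Of all tested genes, 9.2% were lower and 8.31% higher without overlap. The part of cell composition in the results was not tested. No sequencing batch or date is given in the labels.

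The core and cap genes were abundant in the cortex and the immunoproteasome genes were not. Levels per transcript length were taken as FPKM rescaled to the same total without Rn45s and averaged over all 8 libraries. The 14 core genes ran from 83.3 for Psma5 to 314.6 for Psmb4, and the 17 cap genes from 62.6 for Psmd11 to 199 for Psmc3. Psmb8, Psmb9 and Psmb10 stood between 8.82 and 18.0. For comparison, the median of all tested genes was 13.3.

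Within a class the levels were close although not equal. They spanned 3.04-fold among the alpha genes, 2.47-fold among the standard beta genes, 2.22-fold among the cap ATPases and 2.84-fold among the other cap genes. Psmb4, a non-catalytic beta subunit, was highest in controls at 329.9 ± 17.1 FPKM (SD, n = 4), followed by Psma4 at 281 ± 18.6, Psmb7 at 266 ± 14.2 and Psmb5 at 258 ± 6.98. The SDs of Psma4 and Psmb7 and those of Psmb7 and Psmb5 overlapped. Within libraries, Psma4 was above Psmb7 in control I, J and L and below it in control M. Psmb7 was above Psmb5 in control I, L and M and below it in control J. The order of these neighbours was not tested. The activators ran from 46.2 for Psme3 to 107.8 for Psme4, and the chaperones with a Psmd symbol from 17.9 for Psmd9 to 54.3 for Psmd5.

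The members made for other tissues were nearly silent. Psma8, the alpha subunit of the testis proteasome, lay between 0.117 and 0.316 CPM and did not pass the filter. Psmb11, the catalytic subunit of the thymus, was at 0.53 ± 0.17 CPM on the control diet and 0.56 ± 0.13 on the high fat diet (SD, n = 4). Psmc3ip, a meiotic recombination factor that shares only the letters of its symbol, was at 2.29 ± 0.31 and 2.50 ± 0.47 CPM. Leaving these 3 out, 41 genes make up the core, immunoproteasome, cap, chaperones and activators.

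**Figure D1:**
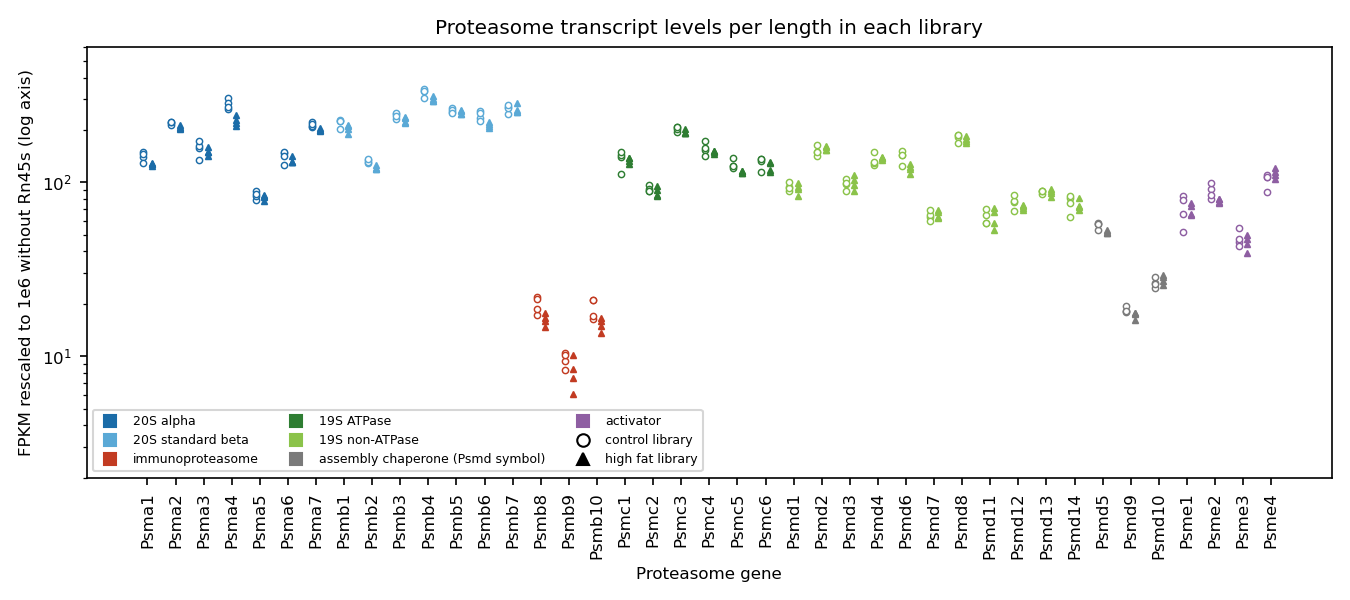
Level per transcript length of each of the 41 proteasome genes in each library, as rescaled FPKM on a log axis, coloured by class, with open circles for control and triangles for high fat libraries. Psmb8, Psmb9 and Psmb10 lie well below the core and cap genes, and for most genes the symbols of the diets overlap.

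The diets were compared across all genes with edgeR's quasi-likelihood test and Benjamini-Hochberg adjustment, and a gene was called at an adjusted p under 0.05. Of the 43 tested members, 2 fell on the high fat diet, Psma4 and Psmd6, and none rose. These 2 make 4.65% of the members, and 5.13% of the 14711 tested genes fell, so the share of members called lower was near the background. The shares of all tested genes called were 9.99% in either direction and 4.86% higher on the high fat diet. With no adjustment, 12 of the 43 members had p under 0.05 with a lower level, against 14.1% of all tested genes, and none had it with a higher level, against 13.3%. DESeq2 and limma-voom also called no member higher.

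The members' log2 fold changes were small and lay mostly on one side. Of the 43, 35 were below 0, compared with 50.5% of all tested genes, and they ran from -0.33 for Psma4 to 0.11 for Psme4. The median was -0.078, beside a median of -0.0023 over all tested genes. In 11 members every high fat library lay below every control library, which 9.2% of all tested genes showed, and in none did every high fat library lie above, which 8.31% showed. Members are not independent of each other, and these counts are a description of the list.

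The intervals of the main fit give the differences between the diets that the spread from library to library allows for each gene. For 30 of the 41 genes the 95% interval of the fold change lay within 1.2-fold in either direction, and for 40 it lay within 1.5-fold. The exception was Psmb9, the member with the fewest counts among them. The 11 genes that reached beyond 1.2-fold were Psma1, Psma4, Psmb2, Psmb4, Psmb6, Psmb8, Psmb9, Psmb10, Psmc5, Psmd6 and Psme2. For 12 of the 41 the interval did not include 0, all 12 lower. This equals an unadjusted p under 0.05 in edgeR, which 14.1% of all tested genes had with a lower level and 13.3% with a higher one.

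**Figure D2:**
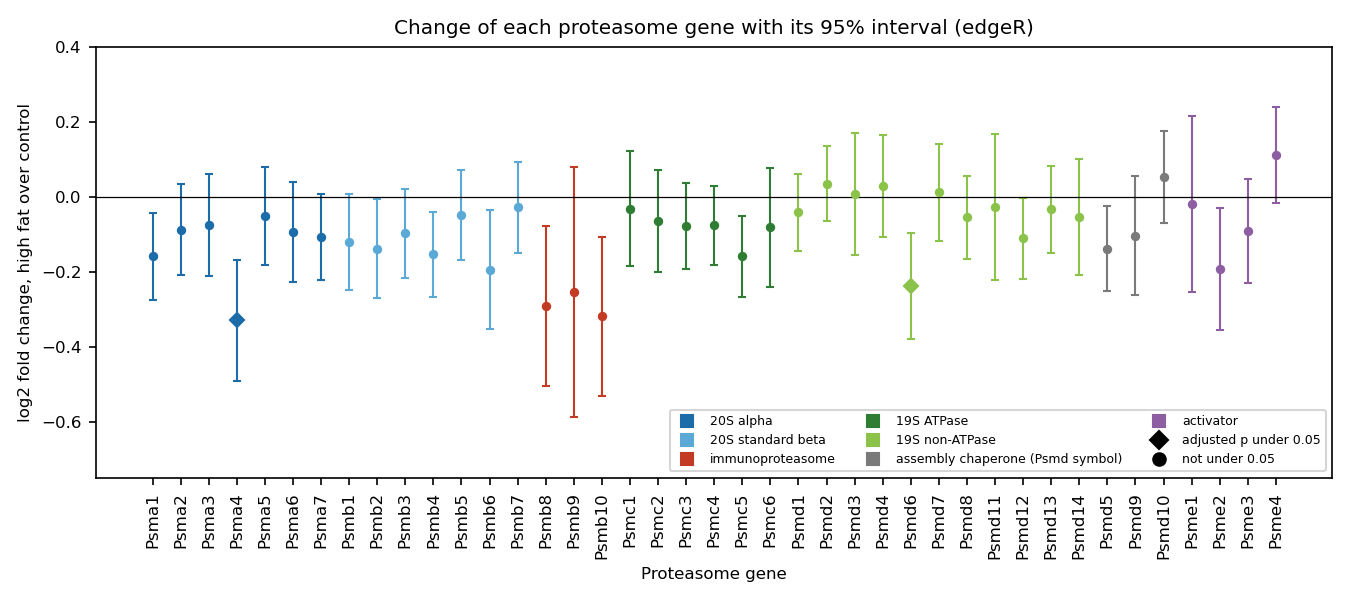
Fitted log2 fold change (high fat over control) of each of the 41 proteasome genes with its 95% interval from edgeR, by class, with diamonds for adjusted p under 0.05. Psma4 and Psmd6 are the only diamonds, and the intervals of the 3 immunoproteasome genes reach lowest.

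The lower levels were shared unevenly among libraries. High fat F and G were each among the lowest 2 of the 8 libraries for 26 of the 41 genes, whereas high fat A was so for 10 and high fat B for 4. Control J was the highest library for 15 genes and control L for 11. The median deviation of the tested members from each gene's mean over 8 libraries, on the log2 CPM scale, was 0.045, 0.057, 0.041 and 0.018 in control I, J, L and M. It was -0.0067 and -0.0017 in high fat A and B and -0.083 and -0.085 in high fat F and G. All 4 control medians thus lay above all 4 high fat medians, with high fat A and B close to 0. This did not hold for the 20S core taken alone. Its median was -0.0099 in control M, below 0.0012 in high fat A and 0.0030 in high fat B.

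Without high fat F and G, an alternative chosen after the data were seen, the median log2 fold change of the members was -0.040 and no member was called. The number of genes called in the whole table then went from 1469 to 456, with 2 high fat libraries left. High fat F and G also had the longest transcripts on average, weighted by counts, at 2846 and 2831 bases, against 2715 to 2805 in the other 6 libraries. Proteasome transcripts are short, with a median effective length of 1245 bases against 2731 for all tested genes. When the trend of counts with transcript length was removed within each library, the median log2 fold change of the members was -0.040 and Psma4 alone was called.

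**Figure D3:**
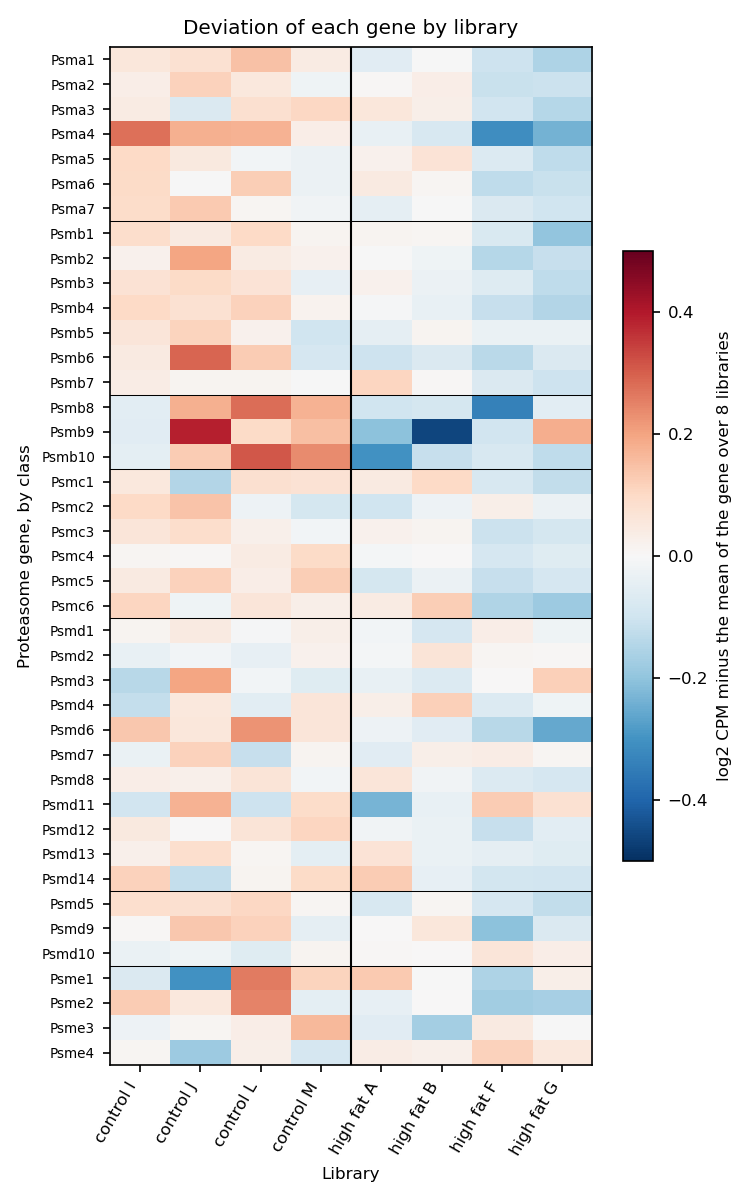
Deviation of each proteasome gene in each library from its own mean over the 8 libraries, in log2 CPM, with red above and blue below the mean, ordered by class. High fat F and G are blue for most core and cap genes, and the deepest blue of the immunoproteasome genes is in high fat F for Psmb8, B for Psmb9 and A for Psmb10.

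In the 20S core, all 14 genes had a lower mean on the high fat diet in the fit and 1 of them, Psma4, fell. The median log2 fold change of the core was -0.10, and -0.041 with the length trend removed. In 4 of the 14 core genes, Psma1, Psma4, Psmb2 and Psmb4, the diets did not overlap, with high fat lower, as in 9.2% of all tested genes.

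Psma4, an alpha subunit at the gate of the barrel, is encoded on chromosome 9 (54950790 to 54958030 of GRCm38, + strand). Its levels were 161.9, 151.3, 150.7 and 136.8 CPM in control I, J, L and M and 130.3, 126.5, 107.7 and 113.4 CPM in high fat A, B, F and G. Every high fat library was below every control library, with high fat F and G lowest. Psma4 thus fell from a mean of 150 ± 10.3 to 119 ± 10.7 CPM (SD, n = 4). The difference was -20.5%, or -0.33 on the log2 scale with an SE of 0.074 and a 95% interval from -0.49 to -0.17, and edgeR gave it an adjusted p = 0.0195. The call was kept in 5 of the 8 fits that left out 1 library, and was lost without control I (adjusted p = 0.0586), high fat F (0.0543) or high fat G (0.0535). The gene overlaps AY074887 on the opposite strand, which had 7 to 29.8 counts per library, and strand was not stated for the counting.

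Psma1 and Psmb4 were the core genes next in order of p, and neither passed the adjustment. Psma1, another alpha subunit, was at 84.97, 86.2, 90.4 and 84.0 CPM on the control diet and 78.5, 81.6, 75.99 and 73.5 on the high fat diet, with adjusted p = 0.0801 in edgeR. Psmb4 was at 153.5, 150.9, 155.2 and 145.1 CPM on the control diet and 142.6, 139.5, 132.1 and 129.3 on the high fat diet, with adjusted p = 0.0816. In both genes the diets were apart, by a gap smaller than the spread within a diet, and the levels differed by -10.4% and -10.1%.

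Among the catalytic subunits of the standard core, Psmb6, of the caspase-like site, was at 117.3, 139.2, 124.1 and 107.4 CPM on the control diet and 105.8, 108.2, 103.7 and 108.2 on the high fat diet. Control J was highest and control M lay among the high fat libraries. On the log2 scale Psmb6 differed by -0.19 (SE 0.072), and the adjusted p of edgeR was 0.111, or 0.0369 without control M. That was the only 1 of the 8 fits leaving out 1 library that called Psmb6, with adjusted p up to 0.226 in the others. Psmb5, of the chymotrypsin-like site and the target of the inhibitor bortezomib, was at 110.9, 115.0, 107.9 and 99.3 CPM on the control diet and 103.2, 107.4, 103.9 and 103.9 on the high fat diet. The high fat libraries lay inside the control range, and the log2 fold change was -0.05 ± 0.055 with adjusted p = 0.608. Psmb7, of the trypsin-like site, had means of 124.5 ± 1.37 and 122 ± 8.16 CPM (SD, n = 4), with adjusted p = 0.784. With the length trend removed, the values of Psmb5 and Psmb7 were 0.018 and 0.033, on the other side of 0.

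In the 19S cap, 13 of the 17 genes were below 0, 1 fell and none rose. The median was -0.054, with -0.077 for the 6 ATPases and -0.033 for the 11 other subunits. Psmd2, Psmd3, Psmd4 and Psmd7 were the 4 above 0, at 0.04, 0.01, 0.03 and 0.01, with adjusted p of at least 0.666 in edgeR. Psmd2 belongs to the base, where ubiquitin receptors dock, and Psmd4 is itself a ubiquitin receptor.

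Psmd6, a subunit of the lid, is encoded on chromosome 14 (14112174 to 14120984, - strand). Its levels were 90.3, 85.4, 95.9 and 85.8 CPM in control I, J, L and M and 80.6, 78.9, 74.7 and 68.8 CPM in high fat A, B, F and G. The diets did not overlap and high fat G was lowest. Psmd6 thus fell from a mean of 89.3 ± 4.89 to 75.8 ± 5.27 CPM (SD, n = 4). The difference was -15.3%, or -0.24 on the log2 scale with an SE of 0.064 and a 95% interval from -0.38 to -0.098, and edgeR gave it an adjusted p = 0.0398. The call was kept only without control M and without high fat A, and was lost in the other 6 fits that left out 1 library, with adjusted p up to 0.0979. With the length trend removed the log2 fold change was -0.20, with adjusted p = 0.0503.

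The other cap genes with unadjusted p under 0.05 were Psmc5 and Psmd12. Psmc5, an ATPase, was at 77.5, 81.2, 76.7 and 81.7 CPM on the control diet and 70.5, 73.5, 69.3 and 70.7 on the high fat diet, with adjusted p = 0.0639. Psmd12, of the lid, had means of 65.6 ± 2.01 and 60.8 ± 1.79 CPM (SD, n = 4) with adjusted p = 0.176 in edgeR. The diets were apart in both, and also in the ATPase gene Psmc4, whose adjusted p was 0.337. Psmd14, the subunit that cuts ubiquitin chains off the substrate, had means of 57.7 ± 4.16 and 55.7 ± 4.10 CPM with adjusted p = 0.664.

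None of the 3 chaperones of cap assembly with a Psmd symbol passed in edgeR, DESeq2 or limma-voom, and Psmd5 alone had an unadjusted p under 0.05 in edgeR. Psmd5 was at 57.7 ± 1.58 and 52.4 ± 2.09 CPM (SD, n = 4), with the diets apart and adjusted p = 0.112 in edgeR. Psmd9 and Psmd10, the latter also known as gankyrin, had log2 fold changes of -0.10 and 0.05.

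The authors' deposited table by gene symbol listed 5 of the members among its 1133 genes, with folds of high fat over control of 0.899 for Psma1, 0.798 for Psma4, 0.901 for Psmb4, 0.898 for Psmc5 and 0.850 for Psmd6. The authors' deposited table by Ensembl gene listed the same 5 and Psmb10, at 0.801, among 1175 genes. Both tables were made from the libraries used here, so these folds are not a second measurement.

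The immunoproteasome genes had the largest median difference of any class and the lowest counts. None of the 3 passed the test in edgeR, although 2 were lower at an unadjusted p under 0.05, as were 14.1% of all tested genes. The median log2 fold change of the 3 genes was -0.29, and -0.24 with the length trend removed. Psmb10 was at 10.1, 11.4, 13.0 and 12.3 CPM in control I, J, L and M and 8.49, 9.65, 9.90 and 9.59 in high fat A, B, F and G. The diets did not overlap, with control I only just above high fat F. Mean levels were 11.7 ± 1.23 and 9.41 ± 0.63 CPM (SD, n = 4). They differed by -0.32 on the log2 scale (SE 0.096), for which edgeR gave an adjusted p = 0.0592. This p was 0.0410 without control I, and 0.049992 in DESeq2. The fit without control I was the only 1 of the 8 leaving out 1 library that called Psmb10, with adjusted p up to 0.141 in the others.

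Psmb8, which replaces Psmb5, was at 10.3, 12.1, 12.9 and 12.0 CPM on the control diet and 9.93, 10.02, 8.42 and 10.3 on the high fat diet. Control I was above high fat G by less than the digits shown, and the other 3 control libraries were above all high fat libraries. The diets differed by -0.29 on the log2 scale (SE 0.097), with adjusted p = 0.0819 by edgeR. Psmb9, which replaces Psmb6, was at 3.21, 4.36, 3.56 and 3.69 CPM on the control diet and 2.89, 2.42, 3.12 and 3.78 on the high fat diet. High fat G was above 3 of the 4 control libraries, and the log2 fold change was -0.25 ± 0.152 with adjusted p = 0.309. Psmb9 overlaps the antigen transporter gene Tap1 on the opposite strand, so reads at their shared end cannot be assigned from these counts.

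The lowest library was high fat F for Psmb8, high fat B for Psmb9 and high fat A for Psmb10, so the 3 immunoproteasome genes shared no lowest library. Their median deviation was -0.051, 0.18, 0.28 and 0.18 in control I, J, L and M and -0.21, -0.12, -0.094 and -0.052 in high fat A, B, F and G. The median of control I lay within the range of the high fat medians. A difference in library pattern between these 3 genes and the core was not tested. Without high fat F and G the median log2 fold change of the 3 genes was -0.36, while that of the core was -0.042.

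**Figure D4:**
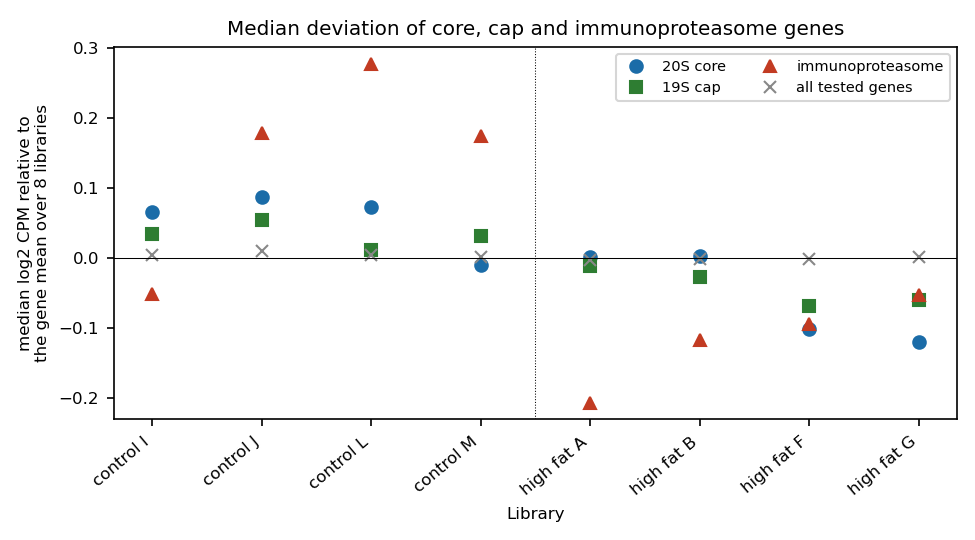
Median deviation of the core, cap and immunoproteasome genes in each library from each gene's mean over the 8 libraries, in log2 CPM, with crosses for the median of all tested genes. Core and cap are lowest in high fat F and G, at -0.10 and -0.12 for the core, and the immunoproteasome is lowest in high fat A at -0.21.

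A ratio of FPKM within a library does not depend on the scaling of that library, so each immunoproteasome gene was divided by the standard subunit it replaces. Psmb8 amounted to 7.66% ± 0.94 of Psmb5 on the control diet and 6.46% ± 0.55 on the high fat diet (SD, n = 4). Psmb9 amounted to 3.98% ± 0.40 and 3.74% ± 0.68 of Psmb6. Psmb10 amounted to 7.09% ± 0.80 and 5.84% ± 0.72 of Psmb7. In all 3 ratios the libraries of the diets overlapped, with control I at 6.47% for Psmb8 and 6.03% for Psmb10, the lowest of its diet.

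The log2 differences of the ratios were -0.24 for Psmb8, -0.10 for Psmb9 and -0.28 for Psmb10, with exact two-sided permutation p = 0.114, 0.543 and 0.0857 (n = 4 per diet) and 0.171, 0.543 and 0.171 after adjustment over the 3. The smallest p that 70 splits can give is 0.0286. For Psmb8 and Psmb10, control I was the only control library within the high fat range, so leaving it out sets the diets apart. The differences were then -0.32 and -0.36. The exact p of each, 0.0286 before adjustment, is the smallest that design allows and was fixed by the library left out, so nothing is concluded from it. A lower share of immunoproteasome to standard transcripts was therefore not shown over all 8 libraries.

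**Figure D5:**
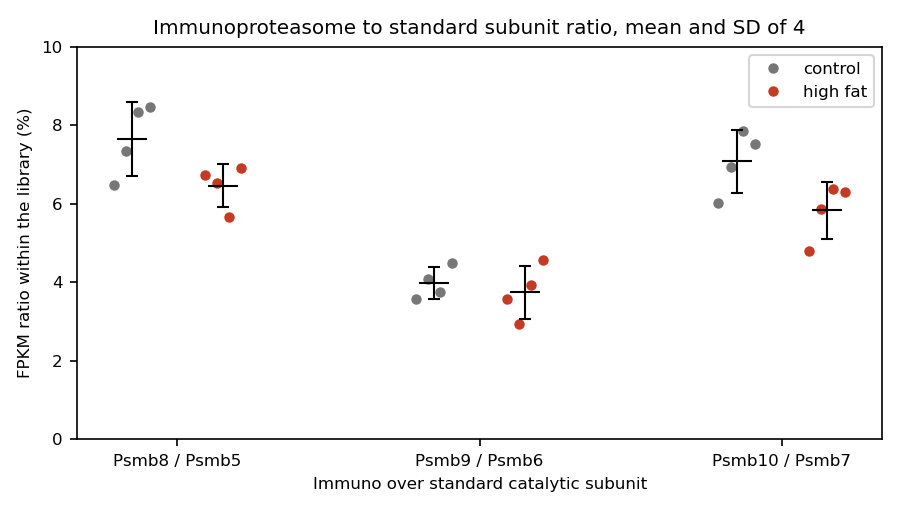
FPKM of each immunoproteasome gene as a percentage of the standard catalytic subunit it replaces, with 1 point per library and bars for the mean and SD of 4. The means for Psmb8 are 7.66% on the control and 6.46% on the high fat diet, and the points of the diets overlap for all 3 ratios.

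Because leukocytes carry immunoproteasomes, their markers are given beside these values. Of 12 leukocyte markers 10 were tested, and none passed in either direction in edgeR, nor had any an unadjusted p under 0.05. DESeq2 and limma-voom called 0 as well. The median log2 fold change of the 10 was 0.16, and the list summed to 206 to 293 CPM in the control and 251 to 322 CPM in the high fat libraries, with Cd3e and Cd79a, of T and B cells, near 0. The leukocyte sum was lowest in control I at 206 CPM, the control library with the lowest Psmb8, Psmb9 and Psmb10. It was highest in high fat G at 322 CPM, where Psmb8 and Psmb10 lay below every control library and Psmb9 above most of them. Cd74 alone made 127 CPM of the sum in control I and 198 CPM in high fat G. A relation of the sum to these genes was not tested. In bulk tissue, fewer cells of a type and less RNA per cell cannot be told apart.

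None of the 4 activator genes passed in edgeR, DESeq2 or limma-voom, and 1 of them, Psme2, had an unadjusted p under 0.05 in edgeR, with a lower level. Psme1 and Psme2, which together form the interferon-inducible activator PA28, had log2 fold changes of -0.02 ± 0.107 and -0.19 ± 0.074 (SE), with adjusted p = 0.936 and 0.121 in edgeR. Psme2 was at 38.9, 36.9, 42.3 and 34.4 CPM on the control diet and 34.6, 35.7, 31.5 and 31.7 on the high fat diet, so that control M lay among the high fat libraries. Psme1 changed sign under several alternatives. Psme3, the nuclear activator, had a log2 fold change of -0.09 ± 0.064 with adjusted p = 0.388. Psme4, the activator PA200, which acts on acetylated histones, had the highest value of all members at 0.11 ± 0.058, with 351.8, 308.8, 357.2 and 329.9 CPM on the control diet, 358.9, 355.7, 379.0 and 362.6 on the high fat diet, and adjusted p = 0.244. Its lowest high fat library lay just below its highest control library.

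Genes that build, bind or control the proteasome were taken from lists of textbook members. For the counts of these and the following lists, 5.13% of all tested genes were called lower and 4.86% higher in edgeR. At an unadjusted p under 0.05, 14.1% were lower and 13.3% higher. Of 5 assembly factors, Psmg1, part of the chaperone pair that starts the alpha ring, fell, and 4 of the 5 had unadjusted p under 0.05 with a lower level. Psmg1 was at 21.9, 20.5, 22.9 and 18.9 CPM on the control diet and 17.2, 18.4, 17.6 and 16.3 on the high fat diet, with the diets apart. The difference was -0.28 on the log2 scale (SE 0.075; edgeR adjusted p = 0.0412), and the call was kept without control M and without high fat B and lost in the other 6 fits that left out 1 library, with adjusted p up to 0.103. Pomp, which matures the beta ring, had -0.15 with adjusted p = 0.165. The median of the 5 was -0.26, and -0.18 with the length trend removed.

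None of the 9 tested proteins bound to the proteasome passed in edgeR, and 2 of them had unadjusted p under 0.05, both lower. DESeq2 and limma-voom called 0 of the 9. Psmf1, an inhibitor of the core, had a log2 fold change of -0.05 with adjusted p = 0.659. None of the 6 genes that control proteasome genes passed either, 1 with unadjusted p under 0.05. DESeq2 and limma-voom called 0 of these 6. That gene was Nfe2l1, the factor that raises subunit genes when activity is short, at 150.7, 168.0, 144.6 and 153.4 CPM on the control diet and 135.1, 135.0, 143.0 and 143.8 on the high fat diet. The diets were just apart, and the log2 fold change was -0.15 with adjusted p = 0.127.

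Upstream of the proteasome, none of the 6 genes for ubiquitin and its activation passed, with 1 lower and 1 higher at an unadjusted p under 0.05. DESeq2 called 1 of the 6 higher and limma-voom called 0. Of 9 genes for shuttles and the p97 segregase, which carry and unfold ubiquitinated proteins, the shuttle gene Rad23b fell, from a mean of 151.5 ± 9.01 CPM to one of 132.3 ± 3.38 (SD, n = 4), a difference of -0.20 on the log2 scale at an edgeR adjusted p = 0.0466. The call was kept without control I and lost in the other 7 fits that left out 1 library, with adjusted p up to 0.117. The medians of these lists were -0.064 and -0.0068.

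Downstream, 2 of 13 genes of class I antigen presentation and interferon response fell and none rose, against 5.13% and 4.86% of all tested genes. H2-K1, a class I heavy chain, was at 206.8, 212.7, 213.3 and 215.3 CPM on the control diet and 173.2, 185.7, 184.2 and 184.9 on the high fat diet, which is -0.22 on the log2 scale (SE 0.047; edgeR adjusted p = 0.0170). Its call was lost without high fat A, at adjusted p = 0.0509. Its reads may be shared with other class I genes, such as H2-D1, which had 0.08 with adjusted p = 0.350. Gbp2, an interferon-induced GTPase, fell from a mean of 19.96 ± 1.18 CPM to one of 12.2 ± 1.40 (SD, n = 4), a difference of -0.71 on the log2 scale at an adjusted p = 0.0020, and its call was kept in all 8 fits that left out 1 library. Tap1, the transporter that takes proteasome peptides into the endoplasmic reticulum, had -0.0048 with adjusted p = 0.988. The median of the 13 was -0.070.

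Other large complexes gave medians on the same side of 0. The COP9 signalosome and eIF3, complexes related in structure to the lid, had medians of -0.074 over 9 genes and -0.071 over 13, and no gene of either was called in edgeR, with 2 and 3 at an unadjusted p under 0.05, all lower. DESeq2 called 1 COP9 gene lower and 0 of eIF3, and limma-voom called 0 of both. The cytosolic chaperonin CCT had a median of -0.16 over 8 genes, all below 0, and 1 of them, Cct6a, fell (-0.21, adjusted p = 0.0392). Of the 8 CCT genes, 6 (75%) had an unadjusted p under 0.05 with a lower level, against 14.1% of all tested genes. DESeq2 called 3 CCT genes lower and limma-voom called 1, where they called 892 and 735 of the 14711 tested genes lower. The call of Cct6a was kept without control M and without high fat B and lost in the other 6 such fits, with adjusted p up to 0.110. With the length trend removed the medians were -0.063 for COP9, -0.059 for eIF3 and -0.15 for CCT, beside -0.040 for the proteasome members. Differences between these complexes and the proteasome were not tested.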

How the data were processed

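Total expected counts per gene symbol, estimated with RSEM 1.2.9 on mm10 after CASAVA 1.8.2, were deposited by the authors for 8 renal cortex libraries, per the submitters' processing notes. Libraries were made from 1 ug of total RNA with a TruSeq kit and Ribo-Zero Gold, per the labels' protocols. FPKM by symbol were deposited as well. In their comparison tables the authors give a score, the posterior probability that expression is equal, and a ratio, the fold of high fat over control. The aligner, the annotation, the tool behind those tables and the strand used in counting are not given in the sources used here.

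Expected counts were rounded, Rn45s was removed, and the quasi-likelihood F test of edgeR 4.0.16 (R 4.3.3, TMM factors, filterByExpr, diet as the only term) was fitted over 14711 genes with Benjamini-Hochberg adjustment. An SE is the size of the log2 fold change over the root of F. CPM are TMM-scaled without Rn45s. FPKM were rescaled to 1000000 without Rn45s. Effective lengths come from the ratio of counts to FPKM. The 3 FPKM ratios were tested by exact permutation. The test was checked on simulated counts.

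Alternatives were Rn45s kept, DESeq2 size factors, DESeq2 1.42.0, limma-voom (limma 3.58.1), no filter, a mean of at least 5 CPM, limma on log2(FPKM + 0.1) and log2(FPKM + 1) where the mean FPKM reached 0.5, the length trend removed (span 0.3), and libraries left out. Members and lists were chosen with earlier results of these data known. Every member may be named. Full statistics go to called members, the catalytic, immunoproteasome and activator genes, and, in related lists, to called genes and Nfe2l1, Psmf1, Pomp and Tap1, and a result for a further gene of this rule is not reported here; other genes named with values were chosen after these were seen. Older symbols were used for renamed genes, and Paaf1 was not analysed here. Positions are from GENCODE M21, and promoters from RefSeq. Of the members, 10 overlap a protein-coding gene on the opposite strand. Replicate letters differ between the diets, so no libraries were paired.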

Additional observations from a re-analysis of the deposited data

Results flagged for a closer look

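Of 94 groups of 4 libraries examined (each of the 41 proteasome genes and further values, by diet), 4 held a library whose gap to its neighbours was above Dixon's 95% limit for the range, and chance gives about 1 in 20. Psmb2, a standard beta subunit, was at 58.98 CPM in control J, with the other controls between 52.16 and 52.85. Psmc1, a cap ATPase, was at 88.9 CPM in control J, with the others between 102.1 and 104.1. Control J was also the library with 50.3% of its counts on Rn45s, where the other controls had 1.23% to 5.70%, and whether the high share of Rn45s bears on Psmb2 and Psmc1 was not tested. Psmb5 was at 107.4 CPM in high fat B, with the other high fat libraries between 103.2 and 103.9.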

How the results depend on the processing

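Depth, 4 libraries per diet and the spread between them limit these results. The number of genes called went from 1469 to 406 with limma on log2(FPKM + 0.1), 632 on log2(FPKM + 1), 456 without high fat F and G and 417 without the pair of control J and high fat G. With 1 library left out it lay between 739, where high fat F was absent, and 1528, where control M was. The number of proteasome genes called lower, 2, was 0, 1, 0 and 0 in these 4 settings, 1 with the length trend removed, 3 with DESeq2 (Psma4, Psmb10 and Psmd6), and from 0 (high fat F or G absent) to 3 (control M absent) with 1 library left out; none was called higher in any setting. The median of the members was -0.040 with the length trend removed and -0.040 without high fat F and G. For the core these medians were -0.041 and -0.042, for the ATPases -0.023 without high fat F and G, and for the other cap genes -0.0021 with the length trend removed, -0.0063 without the pair of control J and high fat G, 0.0027 without high fat F and G, and -0.044 to -0.013 with 1 library left out. The immunoproteasome median stayed between -0.24 and -0.36 in every setting.

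Values near 0 changed sign. With the length trend removed Psmb5 was at 0.018, Psmb7 at 0.033 and Psme1 at 0.040, and without high fat F and G Psmb7 was at 0.053 and Psme1 at 0.050. Psme1 was at 0.018 and 0.017 with limma on log2(FPKM + 0.1) and log2(FPKM + 1), and Tap1 at 0.021 and 0.018. Tap1 was at 0.0016 with DESeq2 and 0.0054 with a mean of at least 5 CPM. With 1 library left out, Psmb7 ran from -0.072 to 0.00079, Psme1 from -0.10 to 0.072 and Tap1 from -0.086 to 0.11. The log2 difference of the ratio of Psmb8 to Psmb5 then ran from -0.32 to -0.18, and that of Psmb10 to Psmb7 from -0.36 to -0.19. That of Psmb9 to Psmb6 ran from -0.20 to 0.013 (above 0 without high fat B). For Psmb8 and Psmb10 the exact permutation p was 0.0286 without control I, whose removal sets the diets apart. The cause was not tested. No paired analysis was possible because the replicate letters differ between the diets.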
